A study of Mus musculus with 19 samples.

Results

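The Serpina1 and Serpina3 clusters are neighbouring families of serine protease inhibitor genes on mouse chromosome 12, and their transcripts were followed here in the liver of mice lacking 5-lipoxygenase (5LO). Members were the array probes whose gene symbol is Serpina1 followed by a letter a to e, or Serpina3 followed by a letter a to n. There were 13 such probes for 12 genes among 23568 probes: 3 Serpina1 probes (Serpina1b, Serpina1c and Serpina1d) and 10 Serpina3 probes (Serpina3a, 3b, 3c, 3g, 3i, 3j, 3k, 3m and 3n, with a bright and a dim probe for Serpina3c). All 13 were measured on at least 3 mice of every group and were tested among 23344 probes.

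The study compared 5LO knockout (KO) mice with wild-type B6 (WT) mice, all 20 weeks old, which had eaten chow or an atherogenic diet rich in fat, cholesterol and cholate for 16 weeks. Single livers came from 5 KO and 5 WT mice on chow, and from 5 KO and 4 WT mice fed the atherogenic one. Liver RNA of each mouse was labelled with Cy5 and hybridised with a Cy3 pool of WT livers of the same diet, made from 5 chow-fed mice or 4 mice given the atherogenic diet. A log2 ratio of mouse to pool therefore compares genotypes within a diet, while the effect of the diet is read from the mouse intensity. Each of the 19 arrays measured 22763 to 23511 probes, and precision is limited by the number of arrays. Letters A to E name the mice within a group and mean nothing more. Alox5, the gene of 5LO, had 1 dim probe (45.2% of probes were dimmer), and KO minus WT was 0.21 on chow (95% interval -0.10 to 0.52, limma adjusted p = 0.349) and 0.10 on the atherogenic diet (95% interval -0.25 to 0.44, adjusted p = 0.86). The probe's place relative to the deleted part of the gene is not given in these sources, so it does not check the genotype labels. KO mouse D on chow stood apart over all probes, with an SD of its log2 ratios of 1.013 against at most 0.538 on any other array, and the Serpina3 differences on chow that it moves most are given without it as well. It also had the lowest summed hepatocyte marker intensity (27.88, with KO mouse E next at 33.65) and the highest summed skeletal muscle marker intensity of the mice on chow (11.41, against at most 4.83, over 3 measured genes), and the part of either in the serpin values was not tested. Its hepatocyte markers were not low against the pool, with a mean log2 ratio of 0.105, beside -0.26 to 0.174 in WT mice on chow and -0.314 in KO mouse E. A missing value adds nothing to such a sum. Hepatocyte markers were measured in every group (6 of 8 listed genes), with summed mouse intensities of 27.88 to 123.6 in KO and 75.76 to 105.5 in WT mice on chow, and of 77.76 to 115.9 in KO and 51.07 to 86.82 in WT mice on the atherogenic diet.

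Serpins trap a target protease by offering a reactive loop as bait and then locking the cleaved complex. Hepatocytes secrete alpha-1-antitrypsin, the product of the Serpina1 genes, which inhibits neutrophil elastase, and antichymotrypsin-like inhibitors, the products of the Serpina3 genes. Humans have a single active gene of each type, whereas mice carry expanded clusters of close copies whose reactive loops differ. Several members respond to cytokines of the acute phase, to glucocorticoids and to growth hormone.

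Because the copies resemble each other, the sequences before their starts are shown to set the families beside each other. They are RefSeq sequences of the GRCm38.p6 assembly, and 10 of the 12 member genes had an entry, Serpina3k and Serpina3m being named only. With Serpina1a, Serpina1e and Serpina3f, which were not analysed on the arrays here, 13 windows of 250 bases before the annotated start were compared. The 5 Serpina1 windows were 58.8% to 91.4% identical to each other (median 84.7% over 10 pairs). The 8 Serpina3 windows spread more widely, at 39.5% to 90.5% (median 50.3% over 28 pairs), close to the 44.9% to 52.1% between the families. The closest Serpina3 pair was Serpina3c and Serpina3n at 90.5%.

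The Serpina1 windows share 1 long run before the start, printed once because it is the same in Serpina1b, Serpina1c and Serpina1d. Capitals mark GTTAAT, the core of sites of HNF1, a transcription factor of hepatocytes.
Serpina1b, Serpina1c and Serpina1d: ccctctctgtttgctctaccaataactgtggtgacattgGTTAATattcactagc
It lies at chr12:103738200-103738254, chr12:103904962-103905016 and chr12:103773634-103773688, all on the minus strand. The run is the longest that all 5 Serpina1 windows hold, and 0.0152% of all 32851 windows held it (5 windows, both strands searched). GTTAAT alone was found in the 5 Serpina1 windows, in 1 of the 8 Serpina3 windows (Serpina3c) and in 6.43% of all windows.

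The Serpina3 stretches are shown for 3 member genes that passed a test or had the largest difference of the bright probes with the diet. Capitals mark CATTTCCTAAGA, the longest run that 5 Serpina3 windows hold, GGGNNNNTCC, a form of the NF-kB site, and TTCNNNGAA, the STAT site; both strands were searched and no marked matches overlapped.
Serpina3n: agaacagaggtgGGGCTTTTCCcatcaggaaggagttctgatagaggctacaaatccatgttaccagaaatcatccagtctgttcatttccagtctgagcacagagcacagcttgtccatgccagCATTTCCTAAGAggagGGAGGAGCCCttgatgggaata
Serpina3i: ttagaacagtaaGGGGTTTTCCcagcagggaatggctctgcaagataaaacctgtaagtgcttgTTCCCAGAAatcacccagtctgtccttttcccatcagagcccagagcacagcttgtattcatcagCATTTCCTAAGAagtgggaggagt
Serpina3g: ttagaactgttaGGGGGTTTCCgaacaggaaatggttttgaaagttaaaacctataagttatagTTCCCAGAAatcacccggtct
They lie at chr12:104406525-104406687, chr12:104262956-104263108 and chr12:104236050-104236134, all on the plus strand. CATTTCCTAAGA was found in 5 of the 8 Serpina3 windows (Serpina3b, 3c, 3f, 3i and 3n), in none of the 5 Serpina1 windows and in 0.0274% of all windows. GGGNNNNTCC was found in 3 Serpina3 windows and in 16.5% of all windows, and TTCNNNGAA in 3 Serpina3 windows and in 7.02% of all windows. AGAACA, the hexamer of glucocorticoid receptor sites, was found in 11 of the 13 windows and in 16.1% of all windows. A match of letters is not a shown binding site.

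The members fell into 7 bright and 6 dim probes. Serpina1d (brighter than 99.9% of probes), Serpina3m (99.8%), Serpina1c (99.2%), Serpina3k (98.6%), Serpina3n (96.6%), the bright Serpina3c probe (94.4%) and Serpina3i (89.9%) were among the bright. Serpina3g (44.6%), Serpina3a (28.7%), the dim Serpina3c probe (18.7%), Serpina1b (16.2%), Serpina3b (13.4%) and Serpina3j (5.26%) were among the dim. Intensities of 0.01 or more were deposited to 2 decimals, and the 6 dim probes read at most 0.12 in any mouse, so their ratios move in coarse steps. The brightest 1% of probes had more missing values than all probes (2.14% against 0.385%), and Serpina1d was measured on 16 arrays, Serpina1c and Serpina3n on 18 and the others on all 19. Brightness is not compared as a level between genes, since probes differ in how well they bind. Probe sequences were not used here, and a probe may also read RNA of a close copy, so each value belongs to the probe named for a gene.

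On chow, the lowest mean ratios of KO livers among the members were those of 3 bright Serpina3 probes. Serpina3k, an inhibitor of tissue kallikrein, was 0.378-fold in KO relative to WT livers, Serpina3i 0.462-fold and the bright Serpina3c probe 0.498-fold, but none of these differences passed the test over all probes. The bright Serpina1 probes were close to WT, and Serpina3n, which inhibits granzyme B and leukocyte proteases and is induced in the acute phase, was not lower. None of the 13 probes was called at a Benjamini-Hochberg adjusted p under 0.05 in limma, where 1.13% of all tested probes were called. At an unadjusted p under 0.05 there were 5 of 13 members (Serpina3i, Serpina3k, the bright Serpina3c probe, Serpina3a and Serpina3g), where 27.4% of all probes were. The median difference of the 13 probes was -0.19, beside 0.00 over all probes, and 9 of 13 were below 0. In these bulk livers, fewer cells of a type and less RNA per cell cannot be told apart.

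Serpina3i had log2 ratios of -1.0, -1.24, -1.10, -2.26 and -1.92 in KO mice A to E on chow, against -1.41, -0.49, 0.29, -0.09 and -0.24 in WT mice A to E. All 5 KO mice lay below the pool, and WT mouse A lay among them, so the groups overlapped. The difference was -1.11 (SE 0.315, 95% interval -1.78 to -0.45, limma adjusted p = 0.0644). Without KO mouse D it was -0.93 (adjusted p = 0.142), and without WT mouse A it was -1.37 (adjusted p = 0.0413).

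Serpina3k had log2 ratios of -0.86, -0.92, -0.98, -3.78 and -1.81 in KO mice on chow, against -1.16, -0.48, 0.44, 0.01 and -0.15 in WT mice. KO mouse D, the array that stood apart, was by far the lowest, and WT mouse A again lay within the KO range. The difference was -1.41 (SE 0.448, 95% interval -2.35 to -0.46, adjusted p = 0.0852), and without KO mouse D it was -0.88 (adjusted p = 0.145).

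The bright Serpina3c probe gave -0.71, -0.40, -0.83, -2.69 and -1.29 in KO mice on chow, against -0.80, -0.57, 0.54, 0.11 and -0.17 in WT mice. KO mouse D was again the lowest, and WT mouse A the lowest of its group. The difference was -1.01 (SE 0.342, 95% interval -1.73 to -0.29, adjusted p = 0.0965), and without KO mouse D it was -0.63 (adjusted p = 0.195). The dim Serpina3c probe differed by 0.28 with an interval of -0.28 to 0.85, so the pair of probes for this gene had opposite signs.

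Without KO mouse A, the calls on chow changed to 3 of 13 (the bright Serpina3c probe, Serpina3i and Serpina3k), where 16.5% of all probes were then called. Serpina3i alone was called without KO mouse C, where 5.23% of all probes were, and without WT mouse A, where 3.35% were. In the authors' deposited table, which gives a p-value for each array, Serpina3k, Serpina3i and the bright Serpina3c probe were each under 0.01 in 5 of 5 KO arrays on chow, against 1, 2 and 3 of 5 WT arrays. Of all tested probes, bright and dim, 1.02% were under 0.01 in all 5 KO arrays on chow in the authors' deposited table. The 3 probes are bright and were named for their low KO ratios on these same arrays, so this share is no test of them. That p-value compares 1 mouse with the pool and does not carry the spread between mice.

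Serpina3m ran between -0.88 and -0.03 in KO mice on chow, and between -0.67 and 0.79 in WT mice, with a difference of -0.44 (95% interval -0.98 to 0.10, adjusted p = 0.267). Serpina3n gave -0.65, 0.06, -0.16, 0.86 and 0.42 in KO mice, against -0.22, -0.39, 0.58, -0.06 and -0.72 in WT mice. KO mouse D, lowest for Serpina3k, was the highest for Serpina3n, and the groups overlapped throughout (difference 0.27, 95% interval -0.35 to 0.89, adjusted p = 0.573). Without KO mouse D the difference was 0.08.

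Of the alpha-1-antitrypsin probes, Serpina1c averaged -0.21 ± 0.40 in KO and -0.27 ± 0.23 in WT mice on chow (SD, n = 5 each), a difference of 0.06 with a 95% interval of -0.31 to 0.43. Serpina1d averaged -0.20 ± 0.25 in KO mice (n = 5) and 0.01 ± 0.11 in WT mice (n = 3), a difference of -0.20 with an interval of -0.56 to 0.16. These intervals leave out a change as large as that of Serpina3k's point estimate, though not smaller ones. Of the dim probes, Serpina3a differed by -0.40 (adjusted p = 0.105) and Serpina3g, an intracellular inhibitor of cathepsins in blood cells, by 0.50 (adjusted p = 0.127). Serpina1b, Serpina3b and Serpina3j had differences of -0.19 to -0.12, all with intervals that include 0.

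Neutrophil markers had higher values in KO than in WT mice on chow. Their mean log2 ratio over 7 measured of 9 listed genes was 1.47 ± 0.82 in KO and 0.02 ± 0.23 in WT mice (SD, n = 5 each), and their summed intensity was 0.75 to 4.57 in KO and 0.38 to 0.95 in WT mice. None of the 7 passed the test singly, and no marker was listed at 0. KO mice C and D had the highest neutrophil means, 2.54 and 2.02. The part of these cells in the serpin values was not tested.

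**Figure D1:**
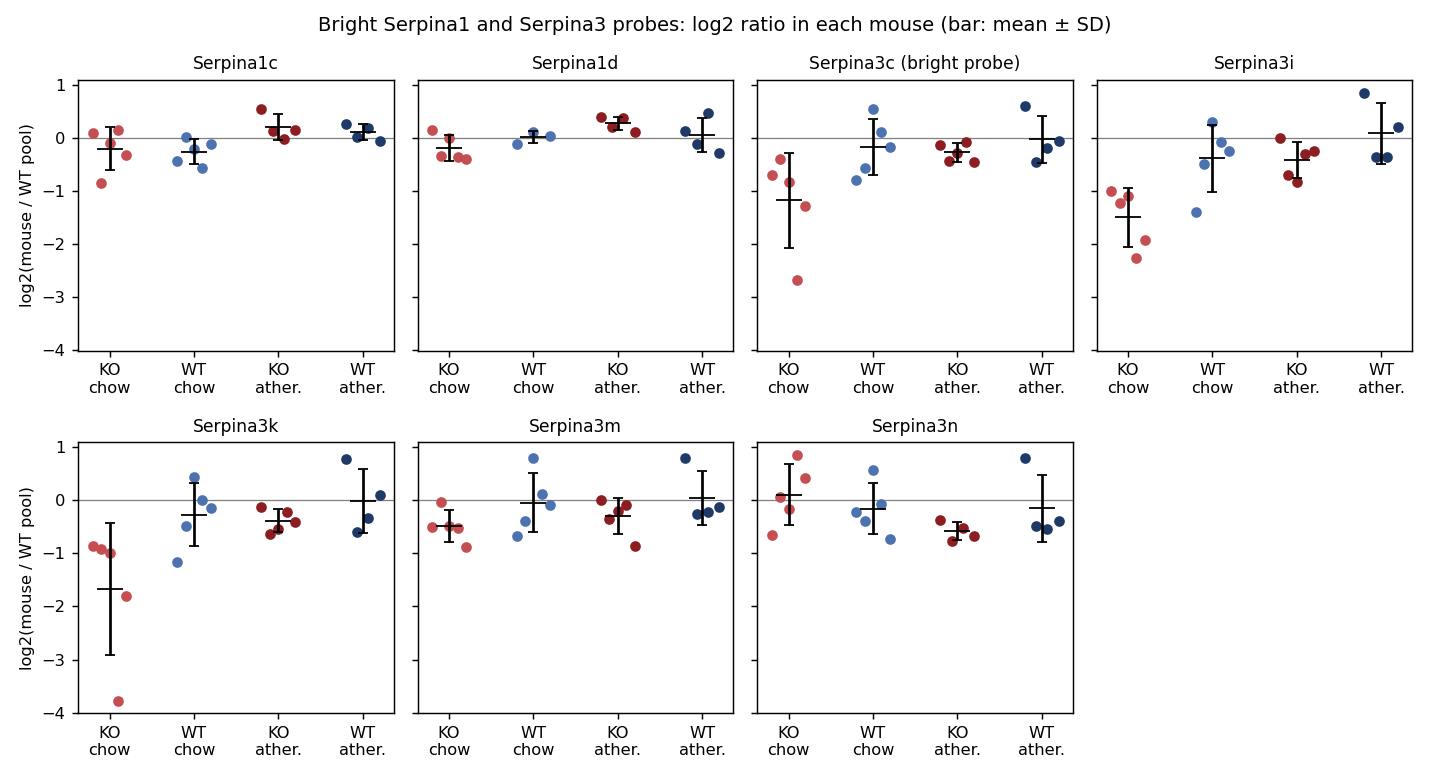
Log2 ratio of each mouse to the WT pool of its diet (vertical axis) for the 7 bright probes, with KO and WT mice on chow and then KO and WT mice on the atherogenic diet along the horizontal axis; points are mice, bars the mean ± SD. Serpina3c, Serpina3i and Serpina3k lie below 0 in all 5 KO mice on chow, and KO mouse D is lowest for Serpina3k at -3.78.

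On the atherogenic diet, the estimated KO minus WT differences were smaller in size for the Serpina3 probes picked as most different on chow. A difference between the diets was not shown for them. In the direct test, Serpina3k, Serpina3i and the bright Serpina3c probe each had a limma adjusted p of 0.784. None of the 13 probes was called, where 0.0214% of all probes were, and 1 of 13 (Serpina3g) had an unadjusted p under 0.05, where 10.7% of all probes did. The median difference over the members was -0.25, beside 0.00 over all probes.

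Serpina3i gave -0.01, -0.70, -0.83, -0.32 and -0.24 in KO mice on the atherogenic diet, against 0.83, -0.36, -0.36 and 0.21 in WT mice. All 5 KO mice again lay below the pool, but WT mice B and C lay among them (difference -0.50, 95% interval -1.20 to 0.20, adjusted p = 0.614). Serpina3k gave -0.12, -0.63, -0.55, -0.22 and -0.40 in KO mice, against 0.77, -0.59, -0.32 and 0.10 in WT mice. Its difference of -0.37 had an interval of -1.37 to 0.63 and an adjusted p of 0.806. WT mouse A was the highest of its group for all 5 of the bright Serpina3 probes, and without it the difference was -0.25 for Serpina3i and -0.11 for Serpina3k.

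Serpina3n gave -0.37, -0.76, -0.52 and -0.67 in the 4 KO mice with a value, against 0.79, -0.47, -0.53 and -0.40 in WT mice. The KO values lay within a narrow band that overlapped 3 of the 4 WT mice, and the difference was -0.43 (95% interval -1.12 to 0.27, adjusted p = 0.666). Without WT mouse A it was -0.11. Serpina3g gave -0.68, -0.59, -0.42, -0.49 and -0.74 in KO mice, against -0.19, 0.59, -0.59 and -0.22 in WT mice, a difference of -0.48 (95% interval -0.91 to -0.04, adjusted p = 0.428). All 5 KO mice were below the pool, and WT mouse C lay among them.

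The bright Serpina3c probe differed by -0.25 (95% interval -1.01 to 0.52) and Serpina3m by -0.35 (95% interval -0.92 to 0.23), and without WT mouse A by -0.04 and -0.10. Serpina1c differed by 0.10 (95% interval -0.31 to 0.50) and Serpina1d by 0.22 (95% interval -0.13 to 0.57). Serpina1d lay between 0.11 and 0.39 in the 4 KO mice with a value, and between -0.28 and 0.47 in the 4 WT mice. No member separated the genotypes without overlap on either diet, where 3.39% (chow) and 5.11% (atherogenic diet) of all probes did.

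The difference between the genotype effects of the diets was tested directly. No member was called, and 0% of all probes were. At an unadjusted p under 0.05 there were 2 of 13 members (Serpina3g and Serpina3a, both dim), where 5.77% of all probes were. For Serpina3g the KO effect on the atherogenic diet minus that on chow was -0.97 (SE 0.286, adjusted p = 0.738). Serpina3k's KO effect was higher on the atherogenic diet by 1.04 (95% interval -0.34 to 2.41, adjusted p = 0.784), so a difference between the diets was not shown. Without KO mouse D on chow it was 0.51 (adjusted p = 0.907).

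Averaged over the diets, Serpina3i fell in KO livers, by 0.81 on the log2 scale (0.572-fold, SE 0.230, limma adjusted p = 0.0439). It was the only one of the 13 probes called, where 6.76% of all probes were (2.87% as lower), so the count is near the background. The call was held with 7 of the 19 mice left out in turn and lost with the other 12, among them KO mouse D on chow (difference -0.71, adjusted p = 0.0557) and WT mouse A on the atherogenic diet (-0.68, adjusted p = 0.10). The mice whose absence ended it were otherwise KO mice B and E and WT mice B, C, D and E on chow, and KO mice B, C and D and WT mouse D on the atherogenic diet.

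Serpina3k averaged -0.89 (95% interval -1.57 to -0.20, adjusted p = 0.0991), the bright Serpina3c probe -0.63 (adjusted p = 0.120) and Serpina3m -0.39 (adjusted p = 0.180). For Serpina3n the average was -0.08, for Serpina1c 0.08 and for Serpina1d 0.01. The intervals of the last 3 were -0.55 to 0.39, -0.20 to 0.35 and -0.24 to 0.26.

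**Figure D2:**
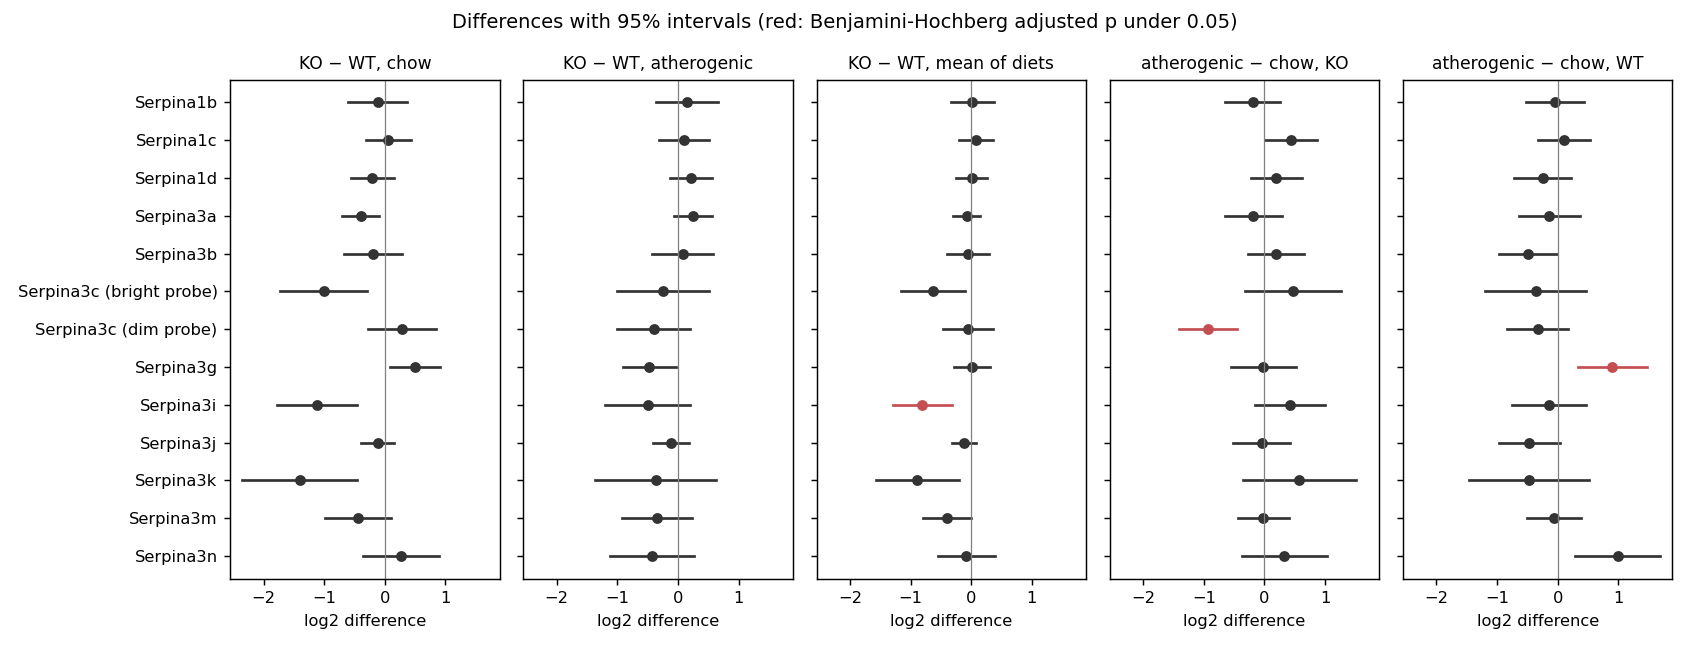
Log2 differences (horizontal axis) of the 13 probes (vertical axis) in 5 comparisons, with points at the limma estimate and lines over the 95% interval; red marks an adjusted p under 0.05. The 3 red values are Serpina3i in the average of the genotype effects (-0.81), the dim Serpina3c probe for the diet in KO (-0.92) and Serpina3g for the diet in WT (0.90).

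Across mice, 4 of the bright Serpina3 probes varied together. Over 19 mice the log2 ratios of Serpina3k and the bright Serpina3c probe had Pearson's r = 0.984 and Spearman's rho = 0.933, and r was 0.949 without the 2 mice farthest from the median of Serpina3c (adjusted p = 0.00021 for r and 0.00028 for rho, permutation within groups). Serpina3k and Serpina3i had r = 0.923 and rho = 0.982, with r = 0.970 without the 2 farthest mice (adjusted p = 0.00021 for r and 0.000105 for rho, permutation within groups). Serpina3k and Serpina3m had r = 0.630 and rho = 0.786, with r = 0.809 without the 2 farthest (adjusted p = 0.0215 and 0.00173, permutation within groups). Among 9736 probes ranked by r with Serpina3k (itself first), the bright Serpina3c probe was at rank 2, Serpina3i at 22 and Serpina3m at 2991. Ranked by r with Serpina3m, Serpina3i was at 7, the bright Serpina3c probe at 8 and Serpina3k at 30. Many probes outside the clusters followed Serpina3k more closely than Serpina3m did, so varying together is not particular to these members.

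Serpina3n did not follow Serpina3k, the bright Serpina3c probe or Serpina3i. Its r was -0.286 with Serpina3k, -0.199 with the bright Serpina3c probe and -0.148 with Serpina3i over 18 mice (adjusted p = 0.491, 0.648 and 0.762 by permutation within groups), with rho of -0.071, 0.003 and -0.098. Without the 2 farthest mice the values of r were 0.547, 0.070 and 0.438, so all 3 signs rest on those mice. With Serpina3m its r was 0.389 and rho 0.201 (adjusted p = 0.151 and 0.518 by permutation within groups), with r = -0.193 without the 2 farthest mice and 0.551 without KO mouse D on chow. Serpina1c and Serpina1d had r = 0.570 and rho = 0.589 over 15 mice (adjusted p = 0.123 and 0.173 by permutation within groups). There were 21 pairs of bright probes, each with 100000 resamples, with p-values adjusted over the pairs. Mice of a diet share a pool, and probes for close copies may read each other's RNA. The part of either in these correlations was not tested.

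**Figure D3:**
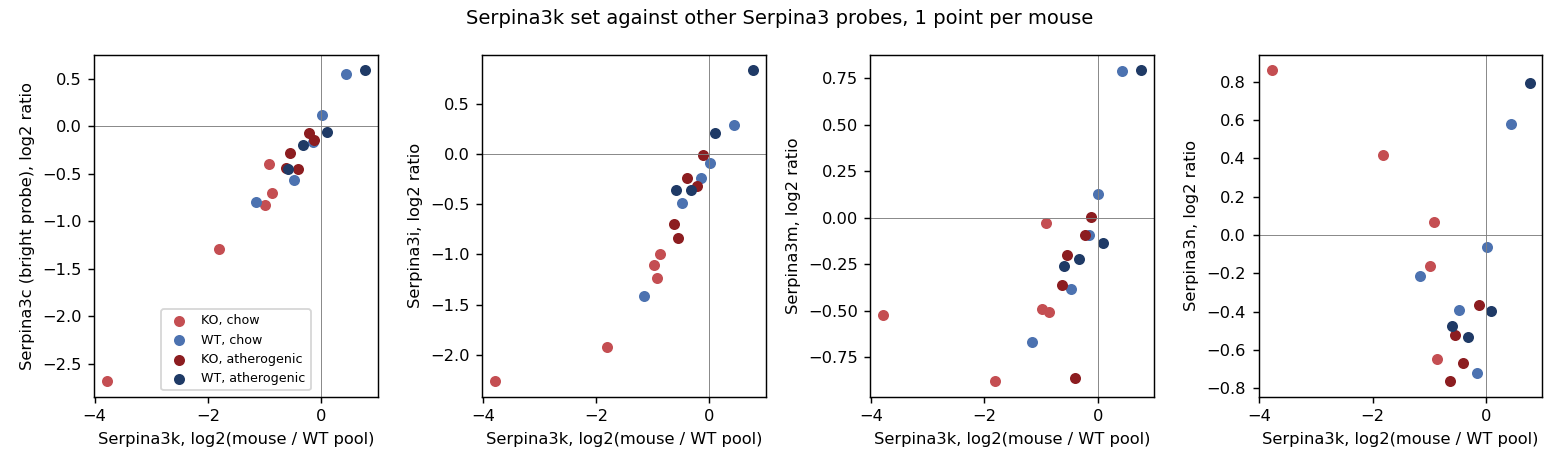
Log2 ratio of Serpina3k (horizontal axis) against those of the bright Serpina3c probe, Serpina3i, Serpina3m and Serpina3n (vertical axes), with 1 point per mouse coloured by group. The first pair of panels lie close to a line (r = 0.984 and 0.923), whereas Serpina3n shows no such line (r = -0.286), and KO mouse D on chow is the point farthest left.

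Likeness to genes outside the clusters was measured as Pearson's r of the log2 ratio over the mice among 9736 probes. The nearest to Serpina3m, the brightest Serpina3 probe, were Etfdh (r = 0.746 over 19 mice), Gpr146 (0.738), Fgb (0.735), Cirbp (0.722) and Sult3a1 (0.720), while Serpina3i stood at 0.713, the bright Serpina3c probe at 0.706 and Serpina3k at 0.630. Without KO mouse D on chow this order changed, with the bright Serpina3c probe at 0.917 and Serpina3k at 0.830, above Etfdh at 0.766. Fgb encodes a fibrinogen chain and Sult3a1 a sulfotransferase that is higher in female liver. The nearest to Serpina1d were Cyp2c54 (r = 0.814 over 16 mice), Cyp2c50 (0.791), Mup3 (0.782), Tmem222 (0.781) and Amy1 (0.761). The nearest to Serpina3n were Fam129b (r = 0.895 over 18 mice), Vps37b (0.877), Hebp2 (0.868), Wdr5b (0.853) and Bok (0.847). For Serpina3k, a target added after its values were seen, the bright Serpina3c probe was nearest, followed by Ext1 (r = 0.948) and Tmem184c (0.948), both at 0.854 without KO mouse D on chow.

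The atherogenic diet was compared with chow within each genotype from the mouse intensity after loess and Aquantile normalisation. In WT livers Serpina3g rose by 0.90 on the log2 scale (1.87-fold, limma adjusted p = 0.0469, SE 0.270). It was 1 of 13 members called, where 7.18% of all probes were called (4.39% as higher), and 3 of 13 had an unadjusted p under 0.05, where 23.7% of all probes did. In deposited units its intensity was 0.07, 0.12, 0.06 and 0.06 in WT mice on the atherogenic diet, against 0.03, 0.04, 0.04, 0.02 and 0.04 in WT mice on chow. Every atherogenic value was above every chow value on this scale, but after normalisation the lowest atherogenic mouse (-4.57) lay below the highest chow mouse (-4.48). The call was lost without any 1 of WT mice A, C and D on chow or A, B and D on the atherogenic diet, with differences of 0.63 to 1.12 over all mice left out in turn. It was also lost in a fit with only the WT mice (limma adjusted p = 0.0747).

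Serpina3n had the largest diet difference of the bright probes in WT livers. Its intensity was 17.57, 9.34, 8.46 and 10.88 in WT mice on the atherogenic diet, against 4.78, 5.31, 7.20, 7.57 and 4.48 in WT mice on chow. The groups did not overlap in these units or after normalisation. On the normalised scale this held for 2 of 13 members (the other was the dim Serpina3b probe, -0.49) and for 14.1% of all probes. In deposited units the Serpina3b groups overlapped, at 0.01 to 0.02 in WT mice on either diet. For Serpina3n the normalised difference was 0.99 (1.98-fold, SE 0.336, 95% interval 0.28 to 1.69, adjusted p = 0.0812) and did not pass. Fitted with only the WT mice, it passed (limma adjusted p = 0.0391), in 1 of 8 settings. With 1 mouse left out in turn it passed in 0 of 9 fits (adjusted p = 0.0724 to 0.284). The differences were then 0.75 to 1.12, lowest without WT mouse A on the atherogenic diet.

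In KO livers Serpina3n gave 9.72, 6.66, 8.61 and 7.40 on the atherogenic diet, against 3.51, 6.38, 4.17, 17.95 and 5.88 on chow. KO mouse D on chow was the highest of all 18 mice in these units. After normalisation WT mouse A on the atherogenic diet was higher (4.19 against 3.975). The normalised difference in KO livers was 0.33 (95% interval -0.38 to 1.03, adjusted p = 0.563). Without KO mouse D on chow it was 0.66. The test of whether the KO effect on Serpina3n differed between the diets gave -0.70 (95% interval -1.63 to 0.24, adjusted p = 0.784), and -0.38 without WT mouse A on the atherogenic diet. Serpina3g in KO livers read 0.05, 0.06, 0.06, 0.05 and 0.06 on the atherogenic diet, against 0.05, 0.03, 0.06, 0.09 and 0.04 on chow, and differed by -0.02 (95% interval -0.55 to 0.51).

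Serpina3k had intensities of 24.26, 9.89, 12.08 and 15.35 in WT mice on the atherogenic diet, against 10.96, 18.95, 36.56, 25.29 and 23.81 in WT mice on chow. The groups overlapped, since the highest atherogenic mouse lay above the lowest chow mice, and the difference was -0.47 (95% interval -1.46 to 0.52, adjusted p = 0.589). In KO mice it was 0.58 (95% interval -0.36 to 1.51), and 0.03 without KO mouse D on chow. Serpina3i differed by -0.14 in WT and by 0.42 in KO mice, and Serpina3m by -0.06 in WT and by -0.02 in KO mice, all with intervals that include 0.

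In KO livers 1 of 13 members was called for the diet, where 9.7% of all probes were. It was the dim Serpina3c probe, which fell by 0.92 on the log2 scale (limma adjusted p = 0.0165, SE 0.229). Its intensities were 0.01, 0.02, 0.0087, 0.00616 and 0.02 in KO mice on the atherogenic diet, against 0.02, 0.02, 0.02, 0.03 and 0.02 on chow, which are at most 3 steps of the deposited rounding. The bright Serpina3c probe had the opposite sign, 0.48 (95% interval -0.31 to 1.27), and 0.07 without KO mouse D on chow. The call of the dim probe was lost with intensities as deposited. Only this probe separated the diets without overlap in KO mice after normalisation, as 8.46% of all probes did. At an unadjusted p under 0.05 there was also Serpina1c, at 0.43 (95% interval 0.00 to 0.86, adjusted p = 0.179), where 27.2% of all probes were. Serpina1d differed by 0.19 in KO mice (95% interval -0.22 to 0.61) and by -0.25 in WT mice (95% interval -0.73 to 0.23).

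The WT pools also carry the diet, as repeat measurements of 1 pool per diet and so with no test. The labels do not say whether the pooled mice are the WT mice measured singly, so the pools are not taken as independent of them. Serpina3k read 14.12 to 16.72 (median 14.92) in the pool on the atherogenic diet over 9 arrays, against 22.72 to 27.02 (median 26.39) in the pool on chow over 10 arrays, 0.583-fold. Serpina3n read 10.14 to 14.31 (median 12.3) on the atherogenic diet, against 4.40 to 9.89 (median 5.83) on chow, 1.98-fold. Serpina3g was 2.20-fold and Serpina3i 0.704-fold on the atherogenic diet relative to chow. These 4 members did not overlap between the pools, nor did 12.8% of all probes. The pools of Serpina1d and Serpina1c were 0.707-fold and 0.839-fold, with overlap, and the median over all probes was 0.12 on the log2 scale.

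**Figure D4:**
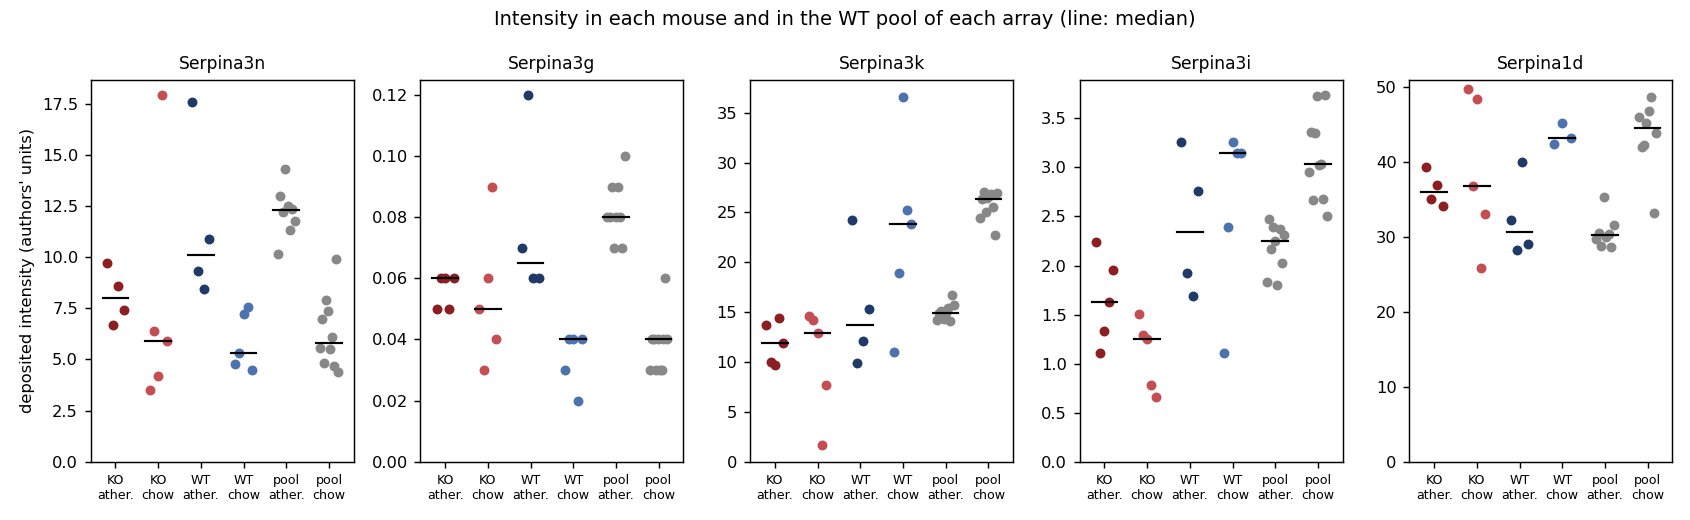
Deposited intensity (vertical axes, from 0, in the authors' units) of Serpina3n, Serpina3g, Serpina3k, Serpina3i and Serpina1d in each mouse and in the WT pool of each array, with the atherogenic diet left of chow; lines are medians. Serpina3n is higher in the pool on the atherogenic diet (median 12.3) than in the pool on chow (5.83), and Serpina3k is lower (14.92 and 26.39).

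Markers of other cells also differed with the diet. In the fit of all 4 groups, Serpina3g was called for the diet in WT livers only, and Serpina3n in neither genotype. Of all tested probes, 7.18% were called for the diet in WT and 9.7% in KO livers. Kupffer cell and macrophage markers rose for 7 of 8 measured genes in WT and for 7 of 8 in KO livers, among them Cd5l by 2.59 in WT. Their summed intensity was 18.12 to 25.2 in KO mice on the atherogenic diet against 5.495 to 9.455 in KO mice on chow, and 19.18 to 27 in WT mice on the atherogenic diet against 7.355 to 14.16 in WT mice on chow. Neutrophil markers rose for 4 of 7 in WT livers, and their summed intensity was 2.2 to 5.2 in WT mice on the atherogenic diet against 0.38 to 0.95 in WT mice on chow. In KO livers none of the 7 passed, with sums of 1.01 to 25.86 on the atherogenic diet against 0.75 to 4.57 on chow. The 25.86 was KO mouse A, and KO mice B to E on the atherogenic diet read 1.45, 1.01, 2.17 and 2.3, within the range on chow. Stellate cell and fibroblast markers rose for 3 of 6 in each genotype (Col1a1, Col1a2 and Dcn). Their summed intensity was 29.79 to 56.29 in KO mice on the atherogenic diet against 24.65 to 31.6 in KO mice on chow, and 30.41 to 44.55 in WT mice on the atherogenic diet against 21.46 to 24.86 in WT mice on chow. The part of these cells in the serpin values was not tested.

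Genes around the serpins were counted for the same comparisons. Of all tested probes, 6.76% were called in the average over the diets, 7.18% for the diet in WT livers and 9.7% for the diet in KO livers. Of 19 measured positive acute phase genes, 9 rose and none fell with the diet in WT livers, among them Lcn2 by 2.94 and Saa1 by 3.68, and 7 rose in KO livers. The list's median was 0.82 in WT and 0.45 in KO livers, beside -0.06 and -0.01 over all probes, while Serpina3n stood at 0.99 and 0.33. Averaged over the diets, 5 of the 19 fell in KO livers (Mt1, Cd14, Orm2, Lcn2 and Lbp) and none rose, with a list median of -0.49. Of 29 measured regulators of the clusters, Il6 (1.64), Il1r1 (1.75) and Socs3 (0.88) rose with the diet in WT livers and none fell. Socs3, a feedback inhibitor of STAT3 signalling, fell in KO livers on the atherogenic diet, by 1.14, and was 1 of the 5 probes called there.

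Of 8 measured other clade A serpins, Serpina6, the corticosteroid carrier, rose by 1.06 in KO livers averaged over the diets, and Serpina7, the thyroxine carrier, fell by 0.87. Of 15 other plasma protease inhibitors, 1 (Mug2) fell, by 1.01, in the same comparison, which is near the 6.76% of all probes called there. Slpi, an inhibitor of leukocyte elastase, rose with the diet by 2.12 in WT and by 1.76 in KO livers. Of 17 measured genes of a list of proteases drawn up around these inhibitors, 1 (Gzmb) fell, by 0.80, in the average and none rose, again near that share. Of 28 measured genes for folding and export of alpha-1-antitrypsin, none passed for genotype. With the diet in KO livers 2 of the 28 fell, Syvn1 by 0.65 and Sel1l by 0.50, a count near the 9.7% of all probes called there. Both act in disposal of misfolded proteins. Of 21 growth hormone and sex-biased genes, 6 fell with the diet in WT livers and 3 in KO livers, among them Sult3a1, which fell by 6.36 in WT livers. Averaged over the diets, 4 of these rose in KO livers and Socs2 fell by 0.86. Of 10 negative acute phase genes, 2 fell with the diet in each genotype, and Serpina6 and Cyp7a1 rose in KO livers in the average. The medians of these 7 lists, the regulators included, lay between -0.24 and 0.13 in that average (0.01 over all probes) and between -0.42 and 0.135 for the diet in WT livers (-0.06 over all probes).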

How the data were processed

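Per the labels' protocols, RNA came from Trizol extraction, and an input of 100 ng went through 2 rounds of amplification. Per the submitters' processing notes, Agilent Feature Extraction (8.5.1.1) was used. The deposited table holds a pool intensity, a mouse intensity and a p-value for each array, per the file headers; how the authors normalised them is not given in these sources. The series matrix holds the same ratios as log10 values, as deposited (largest difference 0.0165 on the log2 scale), and served as an alternative, also with the replicate block. Columns of the table match groups by name but not single samples. Of 81 array pairs that share a pool, the lowest correlation was -0.328; the direction was kept because the labels state the dyes. Columns of other samples numbered 0.

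In R 4.3.3, limma 3.58.1 was run on the log2 ratios (4 groups, 1 fit) and mouse log2 intensities likewise after loess and Aquantile. Probes with under 3 values in a group (224) were left out. The Benjamini-Hochberg adjusted p threshold was 0.05. Scripts were tested on simulated data. All Serpina1a to e and Serpina3a to n probes are named; of each list, up to 4 passing genes with the lowest p were eligible, and 5 nearest genes for likeness. Members and lists were chosen with earlier results of these data known. Labels name single mice, without saying whether the WT mice are those of the pool. Whether same-numbered samples deviate together was checked over 9 pairs (r -0.427 to 0.103, 1 over 0.1), so the numbers were not used as pairs. Sequences came from RefSeq, with Biopython alignments; 1 stretch is not reported here.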

Additional observations from a re-analysis of the deposited data

Results flagged for a closer look

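Of 51 sets of values (a probe in a group of 4 or 5 mice), 12 held 1 mouse far from the rest of its group by Dixon's criterion, which chance meets in about 1 of 20 groups. On bright probes there were 2 such values, both of WT mouse A on the atherogenic diet, with log2 ratios of 0.79 for Serpina3m (next mouse -0.13) and 0.79 for Serpina3n (next mouse -0.40). The other 10 were on dim probes, whose intensities are a few steps of the deposited rounding or lie below it. In KO mouse A on chow, Serpina3b gave 0.0371, the dim Serpina3c probe 1.00 and Serpina3j -0.66. In WT mice on chow, Serpina1b gave 1.00 in mouse E, Serpina3a 0.415 in mouse C, Serpina3b 1.00 in mouse D and Serpina3g -0.585 in mouse D. In WT mice on the atherogenic diet, Serpina1b gave -0.415 in mouse A, Serpina3b 0.0233 in mouse D and the dim Serpina3c probe 1.00 in mouse D.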

How the results depend on the processing

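The count of members called on chow, 0, was 1 with the dimmest 25% of probes left out (Serpina3i), and 0 to 3 with 1 mouse left out. The count for the average over the diets, 1, was 0 under quantile normalisation and 0 with the series matrix values and the replicate block, 2 with mouse intensity in place of the ratio (Serpina1b and Serpina3i), and 0 to 1 with 1 mouse left out. Of 9 KO samples, 2 correlated best with their own number, as a hint from the data only. The count for the diet in KO, 1, was 0 with the dimmest 25% left out (which removes the called probe), 0 with probes averaged per gene and 0 with intensities as deposited. The count for the diet in WT, 1, was 0 under quantile normalisation, 0 with a pseudocount of 0.05, 0 with each array centred on its median, and 0 to 1 with 1 mouse left out. With only the WT mice fitted, Serpina3g was no longer called (limma adjusted p = 0.0747) and Serpina3n was called in its place (0.0391). Serpina3g was called for the diet in WT in 4 of 8 settings. Serpina1b's average reversed to -0.62 with mouse intensity in place of the ratio. Serpina3i's average ranged from -0.81 to -0.57 over 10 settings. The cause was not tested for any of these. Over all probes, the calls on chow numbered 0 to 987 over the settings and 3 to 3854 with 1 mouse left out, on the atherogenic diet 3 to 67 and 0 to 20, in the average 927 to 2109 and 274 to 3611, for the diet in KO 832 to 2544 and 1174 to 3169, and in WT 1493 to 1882 and 884 to 2296. No paired analysis was possible for the diet because the intensity columns carry no replicate numbers and the series matrix holds ratios only. Fits with only the groups compared were not run for the interaction and the average. The 6 dim probes are limited by rounding.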
